A study of Homo sapiens with 4 samples.

Results

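The UGT2 genes encode membrane enzymes of the endoplasmic reticulum that join glucuronic acid, taken from UDP-glucuronic acid, to steroids, bile acids, drugs and other fat-soluble compounds. The glucuronides formed are more soluble in water and leave the cell through transporters. In the liver, these enzymes carry much of the glucuronidation of androgens, bile acids and drugs such as morphine, and the genes lie side by side on chromosome 4 as products of repeated duplication.

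The 9 members were UGT2A1, UGT2A3, UGT2B4, UGT2B7, UGT2B10, UGT2B11, UGT2B15, UGT2B17 and UGT2B28. The deposited tables count 22148 annotated background genes but name only those that the authors called. Whether a member called in neither comparison belongs to that background is therefore not known. The 9 members were chosen by family name, together with 1 measured outcome. This outcome is whether the authors called the gene differentially expressed after sonodynamic therapy (SDT) and so placed it under a GO term. Of the 9 genes, 7 appeared in at least 1 of the 2 comparisons, among 6871 genes that did so in all. A gene found in this way is called listed below. The rule that set this group used the listing, although 2 of the 9 members were in neither list. The listing is therefore described here without a test.

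Both HepG2 and Huh7 are established lines of human liver cancer cells. Ribosomal RNA was removed from total RNA of untreated HepG2 cells (A), HepG2 cells given targeted nanobubbles with lonidamine (LND) and SDT (B), untreated Huh7 cells (C) and Huh7 cells given the same nanobubbles and SDT (D), and the remainder was sequenced, with 1 library per group. In SDT, ultrasound activates a sensitizer within the cells, which here was hematoporphyrin monomethyl ether (HMME). None of these 4 groups received only the ultrasound, only the bubbles or only LND, so the parts of the treatment cannot be told apart in B vs. A or in D vs. C. The tables analysed here hold the numbers and the names of listed genes for each GO term and KEGG pathway. They hold no expression level, fold change, direction or p-value for a single gene. It is therefore not known from them whether a UGT2 gene rose or fell, and per-library depth is not in the tables analysed.

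Listing differed between the cell lines for most of the family. In HepG2 cells, 2 of the 9 UGT2 genes were listed, where 21.6% of all background genes were. In Huh7 cells, 7 of the 9 were listed, where 19.7% of all background genes were. The HepG2 share of 22.2% thus lay close to that of all genes, and the Huh7 share of 77.8% lay above it. UGT2A1 and UGT2B4 were listed in both cell lines. UGT2A3, UGT2B7, UGT2B10, UGT2B15 and UGT2B17 were listed in Huh7 cells alone, no member was listed in HepG2 cells alone, and UGT2B11 and UGT2B28 were in neither list. Over all 22148 background genes, 4783 were listed for HepG2, 4369 for Huh7 and 6871 in at least 1 of the lines. Most listed genes of the whole background were thus in 1 line only. With 1 library per group, the difference between 2 and 7 has no replicate check, and the difference between the cell lines was not tested.

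The genes listed in both lines have unlike known roles. UGT2B4 acts on bile acids and catechol estrogens and is a liver enzyme (ENSG00000156096). UGT2A1 is best known from the olfactory lining and the airways, where it acts on odorants and inhaled compounds (ENSG00000173610). Among the genes listed in Huh7 cells alone, UGT2B15 (ENSG00000196620) and UGT2B17 (ENSG00000197888) inactivate dihydrotestosterone and testosterone. UGT2B7 (ENSG00000171234) has a broad range that takes in morphine, steroids and fatty acids, and UGT2B10 (ENSG00000109181) acts on the nitrogen of amines such as nicotine. UGT2A3 (ENSG00000135220) is found in liver and intestine. The members in neither list were UGT2B11 (ENSG00000213759), whose substrates are less well known, and UGT2B28 (ENSG00000135226), which acts on steroids. An absence says only that the gene was not under any GO term of a comparison. It may have been measured without a call, not expressed, or without a GO term.

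The genes stand in a single row of 10 protein-coding genes on chromosome 4, from base 68537184 to base 69653249 in GRCh38 with the GENCODE release 29 annotation. This row holds the 9 members and UGT2A2, which is not a member and shares exons with UGT2A1. The authors' own genome build is not given in the sources used here, and their tables were joined by Ensembl gene identifier only. In chromosome order, the first 5 genes were UGT2B17, UGT2B15, UGT2B10, UGT2A3 and UGT2B7, which were the 5 members listed in Huh7 cells alone. UGT2B11 and UGT2B28 followed, in neither list, and then UGT2B4 and UGT2A1, in both. UGT2A2, the last of the row, was listed in Huh7 cells only. The pattern did not follow the strand, since UGT2B10, UGT2B7 and UGT2B28 are on the plus strand and the other 7 genes of the row are on the minus strand.

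Beyond the row, 5 protein-coding genes on each side were taken as neighbours. Of these 10, HepG2 cells listed 1, the serine protease gene TMPRSS11F, and Huh7 cells listed 2, SULT1B1 and SULT1E1. Against 21.6% and 19.7% of all background genes, the first count is lower and the second is about the same. Both SULT genes encode sulfotransferases, which add sulfate to phenols and estrogens, and lie just past UGT2A2. The 5 neighbours next to UGT2B17 held no gene listed in Huh7 cells. The neighbours are named here for their place, and their listing was seen before they were named.

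**Figure D1:**
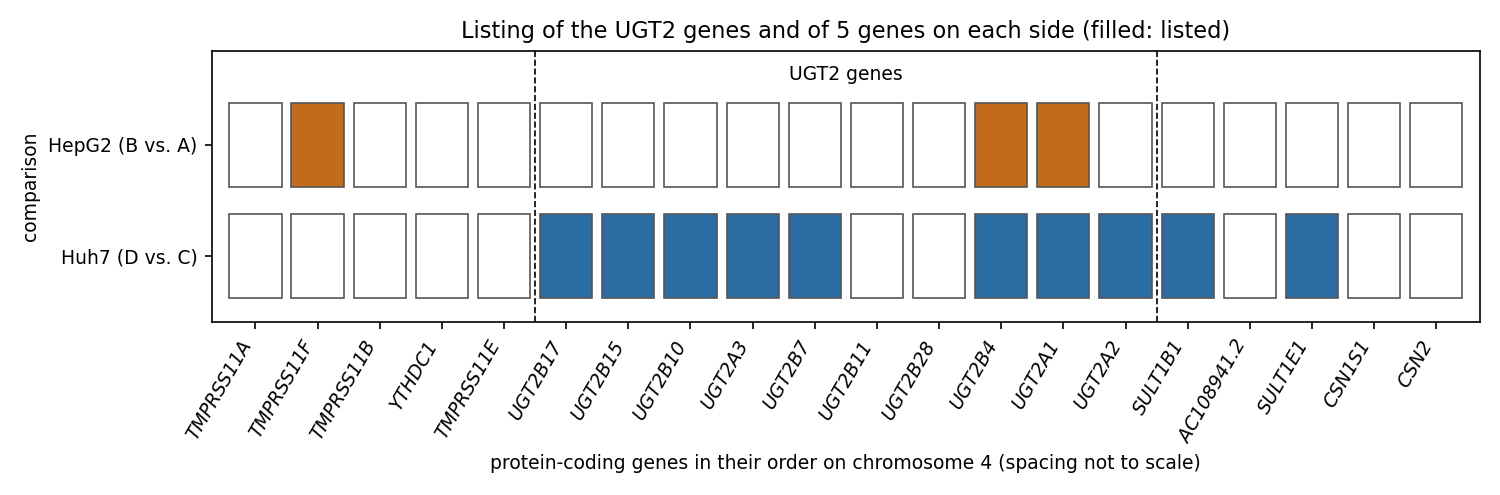
Listing of the UGT2 genes and of 5 protein-coding genes on each side, in their order on chromosome 4 with spacing not to scale; a filled box is a listed gene, the upper boxes are HepG2 (B vs. A), and the lower boxes are Huh7 (D vs. C). Between the dashed lines, HepG2 has 2 filled boxes of 10 and Huh7 has 8 of 10, with UGT2A2 counted.

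Since the members arose by duplication, their sequences show how far reads of each gene could be told apart from those of its relatives. Among the 36 pairs of members, identity of the coding sequence ran from 69.3% to 97.0% of aligned bases, with a median of 85.0%. The 21 pairs within UGT2B ran from 84.2% to 97.0%, and the 14 pairs of a UGT2A with a UGT2B gene from 69.3% to 72.3%. In all 36 pairs the first coding exon was less alike than the other coding exons, with medians of 81.4% and 87.6%. This exon holds the larger share of the part of the enzyme that recognises the substrate, whereas the later exons encode the part that binds UDP-glucuronic acid. Each member has 6 coding exons, and the first makes up 45.2% to 45.5% of the coding sequence.

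In all, 3 windows of 60 coding bases are shown, because they lie where the 3 closest pairs of genes differ most within an exon. Each window was chosen by the differences within its pair. It was not compared with other genes or pseudogenes, so its reads need not be assignable to a single gene. They were taken from GENCODE release 29 transcripts, with coordinates in GRCh38, and are written 5′ to 3′ on the strand of the gene. Capitals mark the bases that differ within a pair.
UGT2B15, exon 1, chr4:68670318-68670377, minus strand: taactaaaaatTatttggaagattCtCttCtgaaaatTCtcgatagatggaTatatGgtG
UGT2B17, exon 1, chr4:68568184-68568243, minus strand: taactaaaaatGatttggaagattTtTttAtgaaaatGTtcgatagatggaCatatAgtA
UGT2B11, exon 1, chr4:69214630-69214689, minus strand: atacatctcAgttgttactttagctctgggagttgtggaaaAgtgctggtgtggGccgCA
UGT2B28, exon 1, chr4:69280534-69280593, plus strand: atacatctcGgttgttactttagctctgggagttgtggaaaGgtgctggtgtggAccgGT
UGT2B10, exon 1, chr4:68816495-68816554, plus strand: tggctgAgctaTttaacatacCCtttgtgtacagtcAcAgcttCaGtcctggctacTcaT
UGT2B11, exon 1, chr4:69214185-69214244, minus strand: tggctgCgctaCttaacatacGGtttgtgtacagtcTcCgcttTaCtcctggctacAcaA

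UGT2B15 and UGT2B17, the androgen-inactivating enzymes listed in Huh7 cells alone, differed at 55 of 1590 coding bases and were 96.5% identical. Of these differences, 39 lay in the first exon and 16 in the others, and 9 lay within the window shown. The longest run of bases without a difference between them was 199 bases, which is close to the upper end of the fragment sizes that the library protocol selected. UGT2B11 and UGT2B28, both in neither list, were the closest pair, with 47 differences in 1587 bases and 97.0% identity, and even their most different window held only 5. UGT2B10 and UGT2B11 were 95.0% identical, with 79 differences in 1584 bases, 10 of them within the window shown. This pair was divided by the listing, since UGT2B10 was listed in Huh7 cells and UGT2B11 was not. Listing thus matched within the 2 closest pairs and differed within the third.

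**Figure D2:**
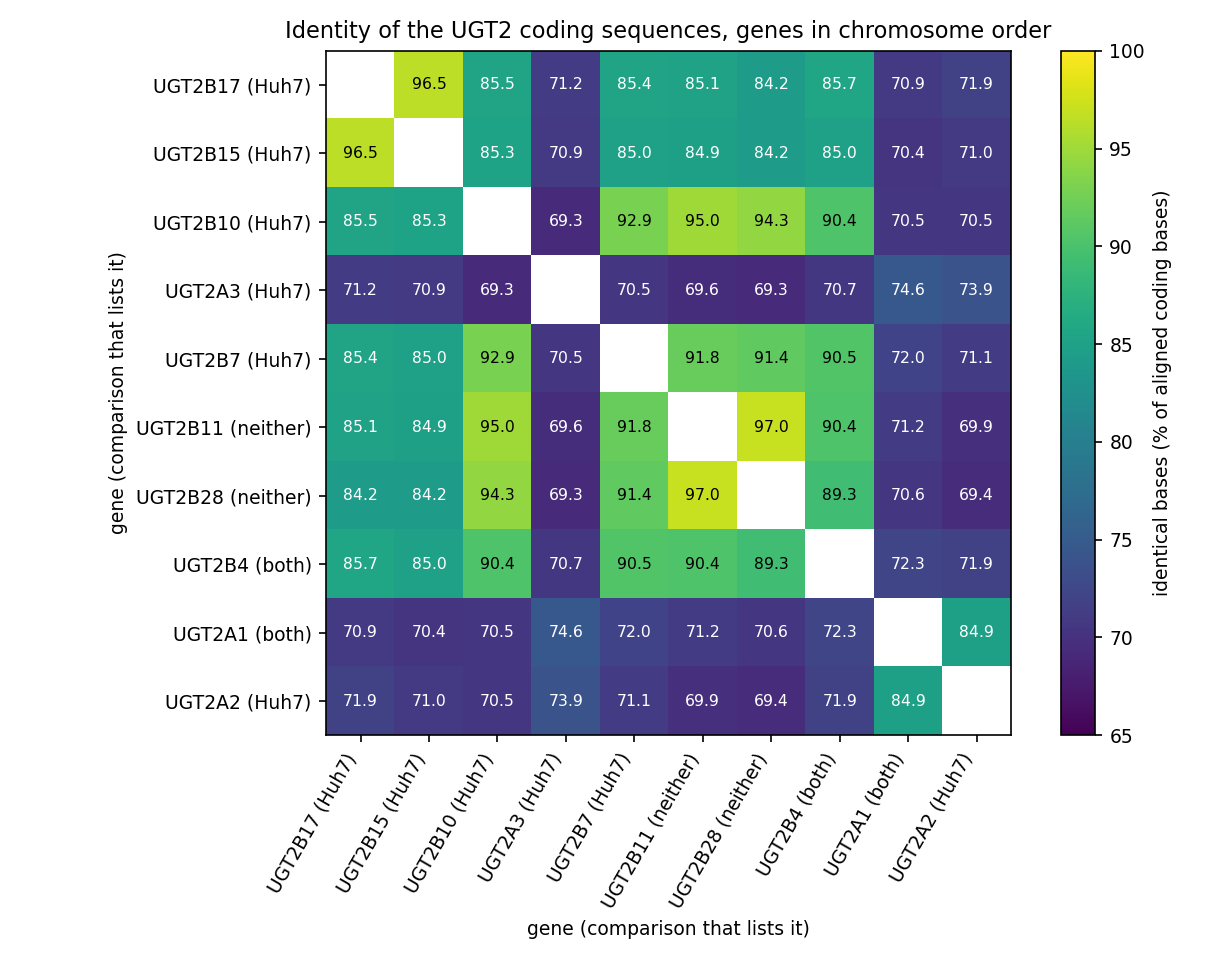
Identity of the coding sequences of the 9 members and UGT2A2, as a percentage of aligned bases, with genes on both axes in chromosome order and the comparison that lists each gene in brackets. The closest pairs are UGT2B11 with UGT2B28 (97.0%) and UGT2B15 with UGT2B17 (96.5%), and the UGT2A genes lie apart from the UGT2B genes at 69.3% to 72.3% among members.

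Each transcript was also cut into every possible stretch of 75 bases, and a stretch was called unique when no transcript of another gene holds it on the same strand. UGT2B4, listed in both lines, was unique in 2718 of its 2719 stretches. UGT2A3 and UGT2B7 were unique in 99.6% and 98.2%. Reads of these 3 genes could therefore nearly all be assigned at this length. UGT2B15 and UGT2B17 were each unique in 81.6%, and each shared 369 stretches, or 18.4%, with the other and with no further gene. UGT2B10 was unique in 83.5%, UGT2B11 in 83.6% and UGT2B28 in 85.4%. The gene that shared most with each of these was a pseudogene, namely UGT2B27P for UGT2B10, UGT2B25P for UGT2B11 and UGT2B24P for UGT2B28. At 75 bases the members in neither list were thus unique to about the same extent as UGT2B10, UGT2B15 and UGT2B17, which were listed in Huh7 cells. With stretches of 50 bases, UGT2B11 and UGT2B28 were lower, at 63.6% and 65.2%, against 69.1%, 72.2% and 72.2%. A part of shared stretches in the listing was not tested.

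UGT2A1 was the least distinguishable member. It was unique in 62.0% of its stretches, and the 1560 others were shared with UGT2A2. The coding exons after the first were identical in UGT2A1 and UGT2A2, with 0 differences, while the first exons were 66.5% identical. UGT2A2 in turn was unique in only 6.70%. That share is too low to come from the later exons alone. All transcripts of a gene were pooled, 7 for UGT2A1 and 2 for UGT2A2, so some annotated to UGT2A1 must also hold the first exon of UGT2A2. Both shares therefore depend on how the annotation assigns transcripts to these genes. How the authors' counting divided reads shared by these genes was not examined, so the listings of UGT2A1 and UGT2A2 are both uncertain. For UGT2A1 this holds in both cell lines, although its 2547 unique stretches could give reads of its own. The separate listings of UGT2B15 and UGT2B17 are uncertain to the extent of their shared stretches.

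**Figure D3:**
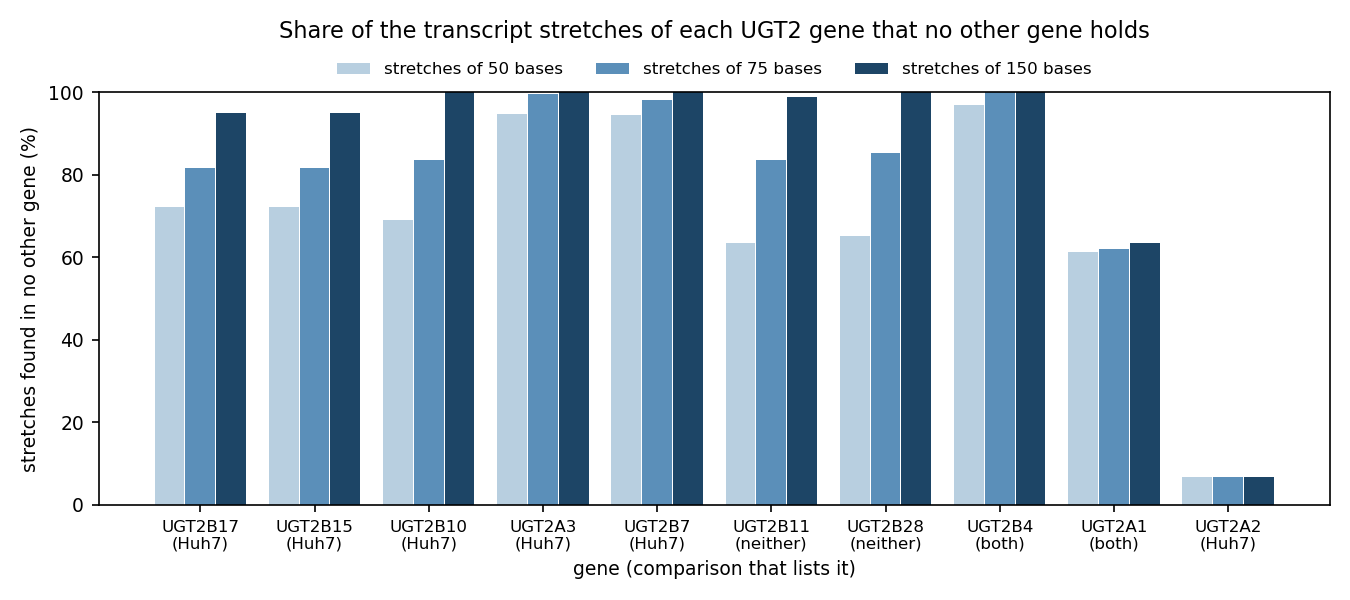
Percentage of the distinct stretches of each UGT2 gene that no other gene holds, for stretches of 50, 75 and 150 bases, with the comparison that lists each gene in brackets. At 75 bases UGT2B4 is at nearly 100%, UGT2A1 is at 62.0% and UGT2A2 at 6.70%, and longer stretches raise the share for each of the UGT2B genes.

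The bases just before the start site are shown for UGT2B10 and UGT2B11, since these genes had the most alike promoters and were divided by the listing. They come from the promoter table of RefSeq (GRCh38.p14), which held 6 of the 9 members. UGT2B4, UGT2B17 and UGT2B28 were not in it. Each line gives the 100 bases before the start, 5′ to 3′ on the strand of the gene, and capitals mark the bases that differ within the pair.
UGT2B10, chr4:68815894-68815993, plus strand: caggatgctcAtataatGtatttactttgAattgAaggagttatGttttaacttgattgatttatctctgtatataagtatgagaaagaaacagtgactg
UGT2B11, chr4:69214749-69214848, minus strand: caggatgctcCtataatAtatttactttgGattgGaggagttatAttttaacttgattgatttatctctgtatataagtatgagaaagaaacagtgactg

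The pair differed at 5 of these 100 bases, and over the 250 bases before the start it was 93.1% identical. The next most alike promoters were those of UGT2B11 and UGT2B15, at 76.2%. The nuclear receptor motif AGGTCA was searched on both strands of the same 250 bases. It was found in UGT2B10 with its first base at -210, in UGT2B11 at -214 and in UGT2B15 at -217 and -143, and it was also in UGT2A2 at -104 and -52. These were 4 of the 7 UGT2 promoters in the table, with UGT2A2, which is not a member, counted, against 12.1% of all 35116. The UGT2B promoters with a match resemble each other, so their matches are not independent, and the difference in share was not tested. UGT2A1, UGT2A3 and UGT2B7, all listed in Huh7 cells, had no match in these bases. UGT2B11, in neither list, therefore held the same match as UGT2B10, which was listed in Huh7 cells. These are matches of letters only.

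The neighbouring steps of glucuronidation were read from gene lists that describe the pathway. Of the UGT1A genes, the other main family, which conjugates bilirubin and phenols, 7 could be matched by symbol. HepG2 cells listed 1 of the 7 (UGT1A6) and Huh7 cells 2 (UGT1A1, the bilirubin enzyme, and UGT1A4), with none in common. Most listed genes of the whole background were also in 1 line only. UGT1A genes share all exons but the first, so the calls for single UGT1A genes are uncertain. UGT3A1, of a related family that uses other sugars, was listed in both lines. For the supply of UDP-glucuronic acid, 3 of 11 genes were listed in HepG2 cells (HK2, SLC35B4 and SLC35D2) and 2 in Huh7 cells (HK1 and SLC35D1). UGDH and UGP2, the enzymes that make the sugar donor, were in neither list. For breakdown, SORD was listed in both lines and RGN in Huh7 cells. For export of glucuronides, ABCC4 was listed in HepG2 cells and ABCC6 in Huh7 cells, out of 6 transporters. These shares, from 14.3% to 33.3%, lay on either side of those of all genes and rest on few genes.

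Of 19 nuclear receptors and transcription factors known to act on UGT genes, HepG2 cells listed 3 (15.8%) and Huh7 cells 6 (31.6%), where the shares of all background genes were 21.6% and 19.7%. HNF4A, a main regulator of liver genes, and NR1H4, the bile acid receptor, were listed in both. PPARA was listed in HepG2 cells, and FOXA1, FOXA3, NR1I3 and POU2F1 in Huh7 cells. The sulfotransferases, which compete with UGT enzymes for steroids and phenols, had 1 of 11 genes (9.09%) listed in HepG2 cells, which was SULT1A3. In Huh7 cells 5 were listed (45.5%), which were SULT1A2, SULT1B1, SULT1E1, SULT2A1 and SULT4A1. SULT1A3 has a near-identical copy, SULT1A4, so its call is uncertain. SULT1A4 was not among the 11 genes, and it was listed in Huh7 cells under chemical carcinogenesis. It is named here after its listing was seen. The 29 genes of steroid synthesis and interconversion had 11 listed for HepG2 (37.9%) and 10 for Huh7 (34.5%), of which HSD3B7, SRD5A2, SRD5A3 and AKR1C4 were in both. Of 7 liver markers, ALB, AFP and HNF4A were in both lists, and APOA1, APOB and TTR in that of Huh7 cells. SERPINA1 was in neither. Of the liver markers, 6 of 7 were thus listed in Huh7 cells (85.7%) against 3 of 7 in HepG2 cells (42.9%). Their part in the UGT2 listing was not tested, nor was the difference between the lines. A listing gives no level, so the liver identity of the cells could not be checked.

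**Figure D4:**
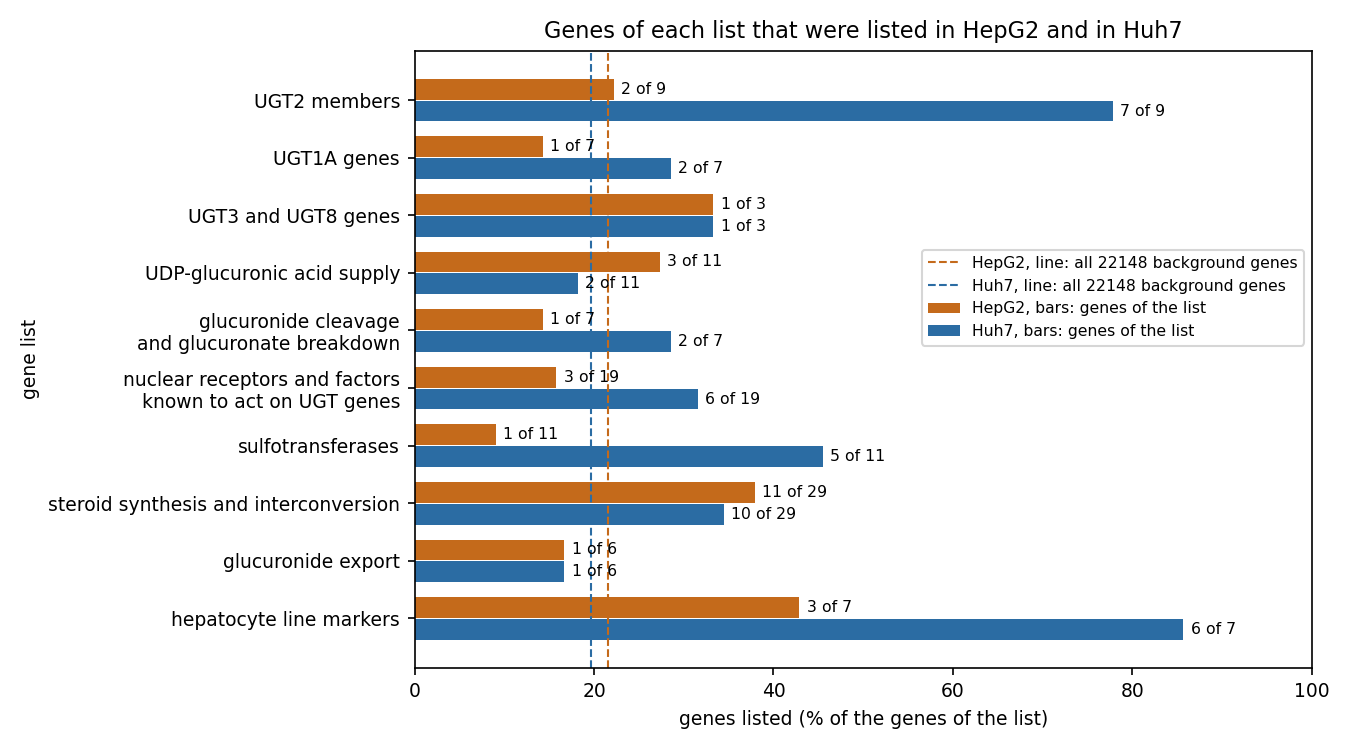
Percentage of the matched genes of each list that were listed in HepG2 cells (orange) and Huh7 cells (blue), with the numbers beside the bars; dashed lines show the same for all background genes, at 21.6% and 19.7%. Among these lists, the UGT2 genes (22.2% and 77.8%), the liver markers (42.9% and 85.7%) and the sulfotransferases (9.09% and 45.5%) stand farthest apart between the cell lines.

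UGT2 genes appeared under 12 KEGG pathways, and the numbers of listed and background genes there show how much of each pathway they made up. In this count UGT2A2 is included, which makes 2 UGT2 genes for HepG2 and 8 for Huh7. In 10 pathways with fewer than 1000 background genes, each of these genes was present, and the listed share was higher in Huh7 than in HepG2 cells in all 10. It ran from 12.2% to 34.4% for HepG2 and from 32.1% to 51.9% for Huh7, where the shares of all background genes were 21.6% and 19.7%. The pathways share the UGT2 genes and are not independent of each other. In each of the 10, Huh7 cells had 6 more UGT2 genes listed, so the higher Huh7 share follows in part by construction.

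Ascorbate and aldarate metabolism, in which glucuronate is a precursor, had the widest gap, with 5 of 27 genes (18.5%) listed in HepG2 cells against 14 (51.9%) for Huh7. Without the UGT2 genes these shares were 15.8% and 31.6%, from 3 and 6 genes. The other genes listed were ALDH1B1, MIOX and UGT1A6 in HepG2 cells, and ALDH1B1, MIOX, ALDH7A1, RGN, UGT1A1 and UGT1A4 in Huh7 cells. Porphyrin and chlorophyll metabolism, where UGT enzymes are entered for bilirubin, had 5 of 41 genes (12.2%) in HepG2 cells against 15 (36.6%) for Huh7. The heme-degrading enzyme HMOX1 and the copper protein CP were listed in both, and ALAS2, UROS and MMAB in Huh7 cells only. Without the UGT2 genes the shares were 9.09% and 21.2%, and the Huh7 share was then close to that of all genes. The genes outside the UGT2 family are named in this paragraph after their listing was seen.

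Pentose and glucuronate interconversions went from 19.4% and 38.9% to 17.9% and 21.4% when the UGT2 genes were left out, so 5 other genes for HepG2 stood against 6 for Huh7. In starch and sucrose metabolism, 10 other genes (20.8%) were listed in each line, and the gap of 6 genes was made up of UGT2 genes alone. Without the UGT2 genes, the Huh7 shares of both pathways lay near the 19.7% of all background genes. The HepG2 shares of both lay below the 21.6% of all background genes. Steroid hormone biosynthesis had a narrower gap without them, with 24.6% and 43.9% of 57 genes and, without the UGT2 genes, 24.5% and 34.7%. Drug metabolism by other enzymes went from 19.6% and 41.3% to 18.4% and 28.9%, and metabolism of xenobiotics by cytochrome P450 from 25.7% and 37.8% to 25.8% and 30.3%, so that both gaps shrank and kept their direction. Chemical carcinogenesis had 21 and 22 other genes listed.

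Drug metabolism by cytochrome P450 and retinol metabolism turned around. In the first, 30.9% of 68 genes were listed for HepG2 and 36.8% for Huh7, but 31.7% and 28.3% without the UGT2 genes. In retinol metabolism 34.4% and 37.5% of 64 genes became 35.7% and 28.6%, from 20 and 16 other genes. Over the 10 pathways, Huh7 cells had more non-UGT2 genes listed in 7, as many in 1 and fewer in 2. In each of the 10, these non-UGT2 genes included 1 UGT1A gene for HepG2 and 2 for Huh7, whose single calls are uncertain. The further UGT1A gene equalled the whole Huh7 surplus of 1 gene in pentose and glucuronate interconversions and in chemical carcinogenesis. The count of 7 therefore depends in part on the UGT1A genes. Bile secretion, the eleventh of this size, held UGT2B4 alone, which was listed in both lines, and had 30.6% and 40.3% of 72 genes listed. In the general entry for metabolic pathways, with 1213 genes, the shares were 24.6% and 24.5%.

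**Figure D5:**
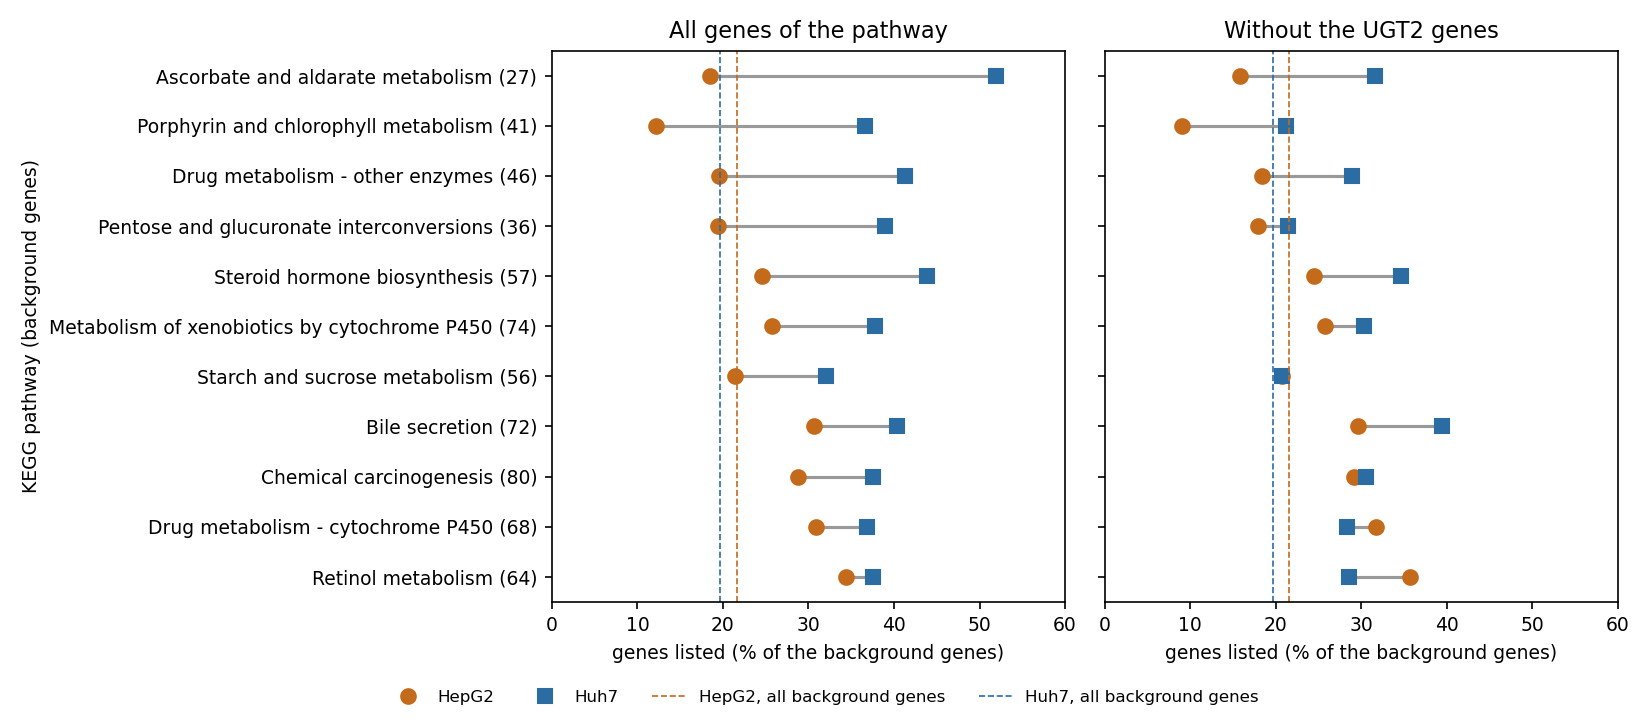
Percentage of the background genes of each of the 11 KEGG pathways with a UGT2 gene and fewer than 1000 background genes that were listed in HepG2 cells (circles) and Huh7 cells (squares), with all genes on the left and without the UGT2 genes on the right; background gene numbers are in brackets, and dashed lines show all background genes. On the left Huh7 is higher in these 11 pathways, and on the right the order is turned in drug metabolism by cytochrome P450 and in retinol metabolism.

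The GO terms are where the listing was read, so the division of the UGT2 genes recurs in them by construction, and their counts describe only how much of each term the family made up. Cellular glucuronidation had 3 of 21 genes listed for HepG2 (14.3%) against 9 for Huh7 (42.9%), of which 2 and 7 were UGT2 genes. The others were UGT1A6 in HepG2 cells, and UGT1A1 and UGT1A4 in Huh7 cells. The terms for uronic acid and for glucuronate metabolic process held the same genes and SORD, with 4 and 10 of 26. Glucuronosyltransferase activity had 7 of 35 (20.0%) and 13 of 35 (37.1%). In the wider term of UDP-glycosyltransferase activity, 40 of 160 genes (25.0%) were listed in each line, with 2 and 8 UGT2 genes among them, so that more genes outside the family were listed in HepG2 cells (38) than in Huh7 cells (32).

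The members differed in the terms that carried them. UGT2B15 was under 60 GO terms in Huh7 cells, UGT2B7 under 57, UGT2B17 under 51, UGT2A1 under 50, UGT2B4 under 48, UGT2A3 under 38 and UGT2B10 under 35. Of the listed genes, UGT2B10 alone was absent from glucuronosyltransferase activity, and the terms for cellular glucuronidation and glucuronate lacked it too, although it was under 11 KEGG pathways like the others, apart from UGT2B4 with 12. Steroid metabolic process held UGT2B7, UGT2B15 and UGT2B17. Androgen metabolic process held UGT2B7 only, and xenobiotic metabolic process held UGT2B15 only. Sensory perception of smell held UGT2A1 and UGT2A2. These last 4 terms were picked after their genes were seen, and GO terms record what was annotated for each gene and not what was measured in the cells.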

How the data were processed

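RNA of 4 libraries, 1 per group, was measured by RNA sequencing. The submitters' processing notes name Bowtie2 2.2.8, HISAT2, StringTie 1.3.1 and Cuffdiff 2.1.1. The study's own text names Cuffdiff in its methods and edgeR in its results for calling genes, so which one made the lists is not known. The genome build is not given in the sources used here. The authors called genes at an adjusted p-value below 0.05 and deposited, for each comparison, GO and KEGG tables with numbers of genes, gene identifiers and their own p-values of enrichment, which were not used. The values analysed are numbers of genes, not of reads, and per-library depth is not in the tables analysed.

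Each gene list was rebuilt as all identifiers under any GO term, and its size equalled that in the table (4783 genes for HepG2 and 4369 for Huh7, of which 4755 and 4346 had a symbol). The members, gene lists and comparisons were chosen with earlier results of these data known. Named are the members, listed genes of the lists, all KEGG pathways with a UGT2 gene, glucuronosyltransferase activity and the 5 smallest GO terms that hold at least 2 UGT2 genes; exceptions are stated. No test was made, since no group has replicates.

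Coding sequences of the APPRIS principal transcripts (GENCODE release 29) were aligned globally with Biopython 1.88 in Python 3.11.15, and gap columns were left out. Promoter sequences are from RefSeq. The routines were tested on simulated data. Alternatives were the KEGG table, single ontologies, other backgrounds and other stretch lengths. Proteins were not used here. The lists of factors and of liver markers leave out 1 gene that is not reported here, which changes their counts.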

Additional observations from a re-analysis of the deposited data

How the results depend on the processing

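The counts of 2, 7 and 2 members listed in HepG2 cells, Huh7 cells and both were the same from the KEGG tables, from molecular function terms alone and from biological process terms alone. All of these annotate the authors' calls of the same comparisons. The sameness therefore shows only that the listed members carry such annotations, and it is no independent check of the calls. With UGT2A2 counted as well, an alternative chosen after seeing the data, they were 2, 8 and 2. Against the 19951 protein-coding genes of GENCODE release 29, the share of all genes listed was 23.9% for HepG2 and 21.9% for Huh7. The 10 pathways with a higher share in Huh7 cells became 7 without the UGT2 genes, with the UGT1A genes still counted. UGT2B11 and UGT2B28 cannot be placed in pathways from these tables; taking both as background genes too, chosen after seeing the data, left that count at 7 and the Huh7 share of pentose and glucuronate interconversions at 23.1%. The unique share of UGT2B11 was 63.6% with stretches of 50 bases and 98.8% with 150, and that of UGT2B15 and of UGT2B17 was 72.2% and 95.1%. The alternative for the identity of proteins was not run, as proteins were not used here. No paired analysis was possible because each group is 1 library without a replicate number and no test was made. The tables limit all of this to whether a gene was listed.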
